A study of Mus musculus with 18 samples.

Results

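The genes described here encode proteins of the cytosolic ribosome. They are all protein-coding genes whose symbol is Rpl or Rps followed by a number (with a, x or l at the end in some), together with Rplp0, Rplp1, Rplp2 and Rpsa. The rule found 80 genes of the 46983 in each table, of which 49 belong to the large subunit and 31 to the small subunit. It uses symbols only and no measured value. Ribosomal proteins with symbols of another form, such as Fau, Rack1 and any with a number after the letter, are not taken in. The sums for each subunit lack them.

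RNA was measured in cells sorted as CD8+ T, as CD4+ T helper or as dendritic cells out of subcutaneous MC38 tumours, a mouse colon carcinoma line, grown in C57BL/6 females that were 6 weeks old at injection. In each sort, 3 libraries came from mice given the antibody anti-PD-1 plus D18 and 3 from mice given anti-PD-1 alone. Anti-PD-1 was given at 200 µg per mouse 2 times a week and D18 at 25 µg per mouse 1 time a week, for 2 weeks, from a tumour volume of about 100 mm3. All 18 libraries therefore carry anti-PD-1, no untreated group was analysed here, and mice were put together before random division into groups. The labels do not say what D18 is, nor whether each replicate is a different mouse, and a p-value here reflects the spread between these libraries alone.

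A ribosome reads an mRNA on its small subunit and joins amino acids on its large subunit, and each carries close to a single copy of most of its proteins. The mRNAs of these proteins are short and abundant, and they are known for a run of pyrimidines at their start (the TOP sequence) through which mTOR signalling controls their translation. In T cells, activation is known to raise ribosome production. In bulk RNA, fewer cells of a type and less RNA per cell cannot be told apart.

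The libraries were shallow and uneven. They held 11170 to 266392 reads, of which 2.39% to 71.9% were mitochondrial, and shares below are taken over the 9560 to 251927 reads of nuclear genes. Several libraries went against their labels. Among the CD4+ libraries, replicates 1 and 2 of anti-PD-1 had reads for 2 and 8 of 12 T cell markers, summing to 22.0 and 364 CPM (read counts scaled to the same total of nuclear reads in every library, by the usual CPM factor), beside 69146 and 76640 CPM for 12 monocyte and macrophage markers. The other 4 CD4+ libraries had reads for all 12 T cell markers, summing to 4682 to 7903 CPM. The monocyte and macrophage list summed to more than the T cell list in each of these as well. It had 9246, 26861 and 30772 CPM in D18 replicates 1, 2 and 3 and 23098 CPM in anti-PD-1 replicate 3. Its part in the CD4+ results was not tested. D18 replicate 3 of the CD4+ sort held 83 reads of Cd8a beside 2 of Cd4, and anti-PD-1 replicate 3 held 15 beside 20. In the dendritic cell sort, D18 replicate 3 and anti-PD-1 replicate 3 held 69 and 34 reads of Cd3e, against 0 in the other 4 libraries. In that sort 7 to 12 of 13 dendritic cell markers had reads, summing to 4707 to 14639 CPM with D18 and to 9641 to 44204 CPM with anti-PD-1. Of these, H2-Aa had 11 to 689 reads, and Flt3 and Zbtb46 had 0 to 13 and 0 to 2. The monocyte and macrophage list summed to 14226 to 41844 CPM with D18 and to 44507 to 64851 CPM with anti-PD-1, without overlap, and its part in the results of that sort was not tested. All 12 T cell markers had reads in every CD8+ library. The monocyte and macrophage list still summed to more than the T cell list in CD8+ D18 replicate 3 (30675 beside 3937 CPM). It did so too in CD8+ anti-PD-1 replicates 1, 2 and 3 (31075, 25396 and 48912 beside 7831, 9489 and 2794 CPM). It summed to less in CD8+ D18 replicates 1 and 2 (1446 and 3243 beside 8267 and 10241 CPM). Its part in the CD8+ results was not tested. Finally, anti-PD-1 replicates 1 and 2 of every sort, 6 libraries, had 0 reads of mt-Atp6, mt-Co2 and mt-Co3 in sum, where the other 12 had 5 to 334. D18 is thus compared in part across these sets of libraries. Within the set of 12, and likewise in a fit with a term for the set, the anti-PD-1 group of each sort is replicate 3 alone, so such values rest on a single anti-PD-1 library and its own deviation cannot be told apart from the treatment.

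Of the 80 genes, 60 had reads in all 18 libraries and 75 had at least 100 reads in total. The remaining 5 were close to absent. Rpl3l, the muscle form of Rpl3, had 0 reads in every library, where 3 reads is the upper limit that a count of 0 allows. Rpl10l and Rpl39l, forms of Rpl10 and Rpl39 best known from the testis, had 1 read each, both in dendritic cell D18 replicate 1, and so 0 in the set of 6 libraries. Rpl24 had 7 reads and Rpl23a 84 over all libraries. Exons of both overlap another annotated gene (Gm28037 for Rpl24, Tlcd1 and Snord42b for Rpl23a), as do those of 37 members in all. The libraries keep no strand, and reads shared by overlapping genes or by processed pseudogenes may have been left out or split in the authors' counting.

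The annotated starts were searched for the pyrimidine run. RefSeq windows (GRCm38.p6) matched 60 of the 80 genes, and in 13 of them (21.7%) the annotated start is a C followed by 4 pyrimidines, as it is for 813 of 27025 genes in the table (3.01%). The letters CTTT lay between 10 bases before and 20 bases after the start in 19 of the 60 genes (31.7%) and in 13.5% of all genes, and on the other strand in 4 (6.67%) and in 12.99%. A CTTT match may lie inside the pyrimidine run. The examples below carry the run and are printed 5′ to 3′ with the annotated start and what follows in capitals, at chr7:141447636-141447665 (plus strand, Rplp2), chr4:86857353-86857382 (minus, Rps6), chr11:114668565-114668594 (plus, Rpl38), chr2:39005117-39005146 (minus, Rpl35) and chr3:90213634-90213663 (minus, Rps27).
Rplp2: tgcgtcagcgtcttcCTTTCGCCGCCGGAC
Rps6: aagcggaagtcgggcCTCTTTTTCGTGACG
Rpl38: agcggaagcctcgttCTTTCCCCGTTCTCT
Rpl35: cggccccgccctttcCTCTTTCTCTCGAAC
Rps27: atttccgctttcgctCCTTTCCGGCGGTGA
After the C the runs differ in length and in the order of C and T.

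Ribosomal protein genes took between 1.96% and 15.3% of the nuclear reads of a library. In the CD8+ T cell sort their share, with its 95% exact binomial interval, was 15.3% (14.996 to 15.6), 5.99% (5.90 to 6.08) and 7.68% (7.46 to 7.89) in D18 replicates 1, 2 and 3. It was 12.5% (12.2 to 12.7), 4.80% (4.70 to 4.91) and 6.31% (6.16 to 6.45) in anti-PD-1 replicates 1, 2 and 3. The groups overlapped, but each D18 library lay above the anti-PD-1 library of the same number, and replicate 1 was highest in both groups. The monocyte and macrophage list summed to 1446, 3243 and 30675 CPM in these D18 libraries, against 31075, 25396 and 48912 CPM in the anti-PD-1 libraries, lower with D18 at each number. The T cell list summed to 8267, 10241 and 3937 CPM in the D18 libraries, against 7831, 9489 and 2794 CPM in the anti-PD-1 libraries, higher with D18 at each number, and the part of either in the share was not tested. The mean share was 9.66% ± 4.97 with D18 and 7.86% ± 4.07 with anti-PD-1 (SD, n = 3 each). The difference was 1.79 percentage points over all libraries and 3.35 against anti-PD-1 replicate 3 alone.

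In the CD4+ T cell sort the share was 9.57% (9.29 to 9.84), 2.83% (2.65 to 3.02) and 8.20% (8.04 to 8.36) in D18 replicates 1, 2 and 3. It was 5.14% (4.998 to 5.29), 5.20% (5.002 to 5.41) and 6.77% (6.61 to 6.93) in anti-PD-1 replicates 1, 2 and 3. The D18 libraries lay on both sides of the anti-PD-1 libraries, with means of 6.87% ± 3.56 with D18 and 5.70% ± 0.922 with anti-PD-1. Without the anti-PD-1 libraries that lacked T cell markers, the anti-PD-1 group is replicate 3 alone, which lay between D18 replicates 2 and 3; the difference was then 0.0974 percentage points, beside 1.16 over all libraries.

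In the dendritic cell sort the share was 5.93% (5.80 to 6.06), 4.88% (4.46 to 5.34) and 7.77% (7.63 to 7.91) in D18 replicates 1, 2 and 3. It was 4.81% (4.64 to 4.99), 1.96% (1.86 to 2.08) and 6.70% (6.57 to 6.84) in anti-PD-1 replicates 1, 2 and 3. The groups overlapped, with means of 6.19% ± 1.46 with D18 and 4.49% ± 2.38 with anti-PD-1. As in the CD8+ sort, each D18 library lay above the anti-PD-1 library of the same number. Over all genes, though, same-numbered dendritic cell libraries did not deviate together. The difference was 1.70 percentage points over all libraries and -0.507 within the 12 libraries that had mt-Co2 reads, where the anti-PD-1 group is replicate 3 alone. These intervals, and the limits given for counts of 0, cover counting error only, since reads without molecular identifiers are not independent molecules.

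**Figure D1:**
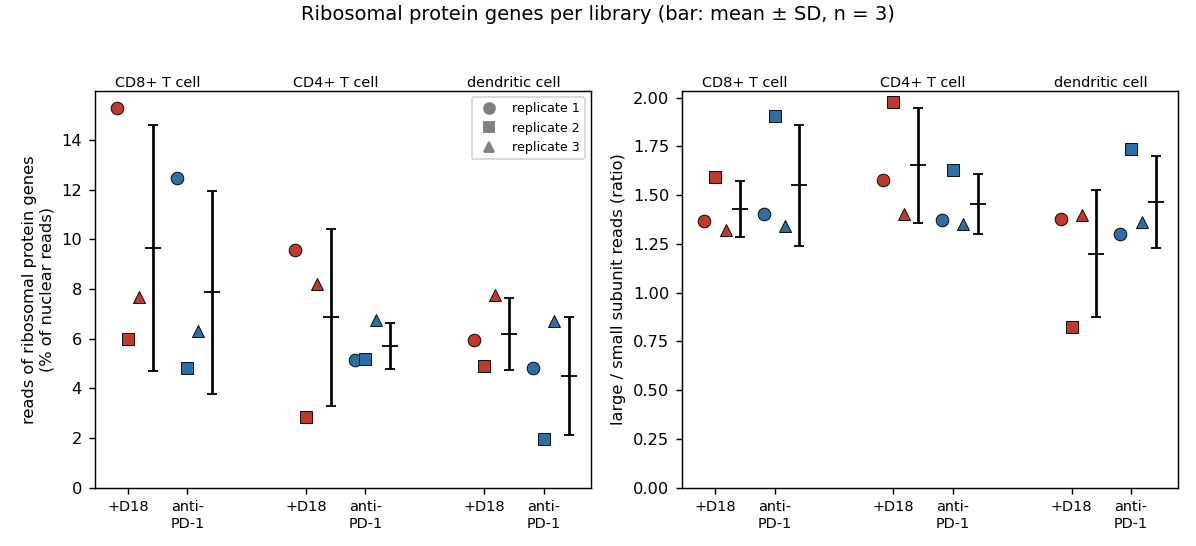
Left, reads of ribosomal protein genes as a percentage of nuclear reads; right, reads of large over small subunit genes. Each point is a library (red, anti-PD-1 plus D18; blue, anti-PD-1; shape, replicate number), and black marks are the mean ± SD of 3 libraries. The groups overlap in every sort, and most squares (replicate 2) stand apart from the circles and triangles in the ratio on the right.

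Large subunit genes drew more reads than small subunit genes in 17 of the 18 libraries. They are also more in number, 44 against 31 among members with at least 100 reads, and the sums are not per gene. In the CD8+ T cell sort the ratio of large to small subunit reads was 1.37, 1.59 and 1.32 in D18 replicates 1, 2 and 3, against 1.40, 1.90 and 1.34 in anti-PD-1 replicates 1, 2 and 3. In the CD4+ T cell sort it was 1.58, 1.98 and 1.41 with D18, against 1.37, 1.63 and 1.35 with anti-PD-1. In the dendritic cell sort it was 1.38, 0.824 and 1.40 with D18, against 1.30, 1.74 and 1.36 with anti-PD-1. The 12 libraries numbered 1 or 3 lay within 1.30 to 1.58 in every sort and treatment, and the 6 numbered 2 lay outside that range. Dendritic cell D18 replicate 2, which alone fell below 1, held 11170 reads, and its large subunit share was 45.2% with an interval of 40.6 to 49.8%. Much of its small subunit sum came from a single gene, Rps29. That gene had 390 normalised reads (reads divided by the size factor of the library) there, and Rps27, the next member, had 144. The ratio without Rps29 was not tested. The groups overlapped in all sorts. The log2 ratio differed by -0.11 (CD8+), 0.18 (CD4+) and -0.32 (dendritic cells) over all libraries, and by 0.082, 0.27 and -0.22 against anti-PD-1 replicate 3 alone.

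The abundance of members was spread over more than an order of magnitude. In CPM per kilobase of annotated transcript, the median over genes was 846 for the 44 large subunit members with at least 100 reads and 1064 for the 31 small subunit members. Small subunit levels ran from 192 (Rps20) to 4990 (Rps27), and large subunit levels from 220 (Rpl35) to 3136 (Rpl13). Levels of genes with a long annotated transcript are understated if a shorter form is used: the transcript taken for Rps20 is 3706 bases long and that for Rpl5 2045. Rps27 (eS27) and Rps29 (uS14), zinc-binding proteins of the small subunit, led with means over the 18 libraries of 4990 and 4195. Rpl13, Rpl41, which is the shortest protein of the ribosome, and Rplp1 followed with 3136, 2993 and 2917, and Rps28 had 2499. The means of Rps29 and Rps28 lean on dendritic cell D18 replicate 2, the shallowest library. Rps29 had 21725 and Rps28 10808 there, against at most 7868 and 4600 in any other library. The order of members was much alike between sorts: over the 75 members, Spearman's rho of mean levels was 0.97 between CD8+ and CD4+ T cells, 0.90 between CD8+ T cells and dendritic cells and 0.89 between CD4+ T cells and dendritic cells. The points share gene length and base composition, and no p is given.

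Values by library show how far these levels move. Rps27 had 4749, 349 and 2140 CPM in CD8+ D18 replicates 1, 2 and 3, against 3696, 191 and 1488 CPM in anti-PD-1 replicates 1, 2 and 3. In the CD4+ sort Rps27 had 3211, 165 and 1869 CPM with D18, against 1156, 536 and 2230 CPM with anti-PD-1. Replicate 2 was lowest in all 4 groups, and D18 and anti-PD-1 overlapped. Rps29 had 3068.5, 99.2 and 753 CPM in CD8+ D18 libraries, against 3006, 105 and 1449.5 CPM in CD8+ anti-PD-1 libraries, again with replicate 2 lowest in both. Rps28, a small subunit protein near the mRNA exit channel, had 1134, 127 and 548 CPM in CD8+ D18 libraries, against 1247, 49.3 and 782 CPM in CD8+ anti-PD-1 libraries. In the dendritic cell sort Rps28 had 714, 2929 and 469 CPM with D18, against 499.5, 15.98 and 775 CPM with anti-PD-1. Replicate 2 was thus lowest in both CD8+ groups, while in dendritic cells it was highest with D18 and lowest with anti-PD-1. Rpl13 had 6450, 2481 and 2927 CPM in CD8+ D18 libraries, against 4033, 1461 and 1926 CPM in CD8+ anti-PD-1 libraries, with D18 higher at each number and the groups overlapping.

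Members with a tissue-restricted relative were read almost wholly from the common gene. Rpl3, which lines the entry to the peptidyl transferase centre, had 2267, 1870 and 1215 CPM in CD8+ D18 libraries, against 2112, 3034 and 1202 CPM in CD8+ anti-PD-1 libraries, while Rpl3l had 0 reads throughout. Rpl10, needed for the last steps of large subunit maturation, had 1837, 842 and 1541 CPM in CD8+ D18 libraries, against 1525, 937 and 1211 CPM in CD8+ anti-PD-1 libraries. The groups overlapped for both genes. Rpl39 summed to 76 to 122 reads per group of 3 libraries and Rps4x, the X-linked eS4 gene, to 247 to 589.

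**Figure D2:**
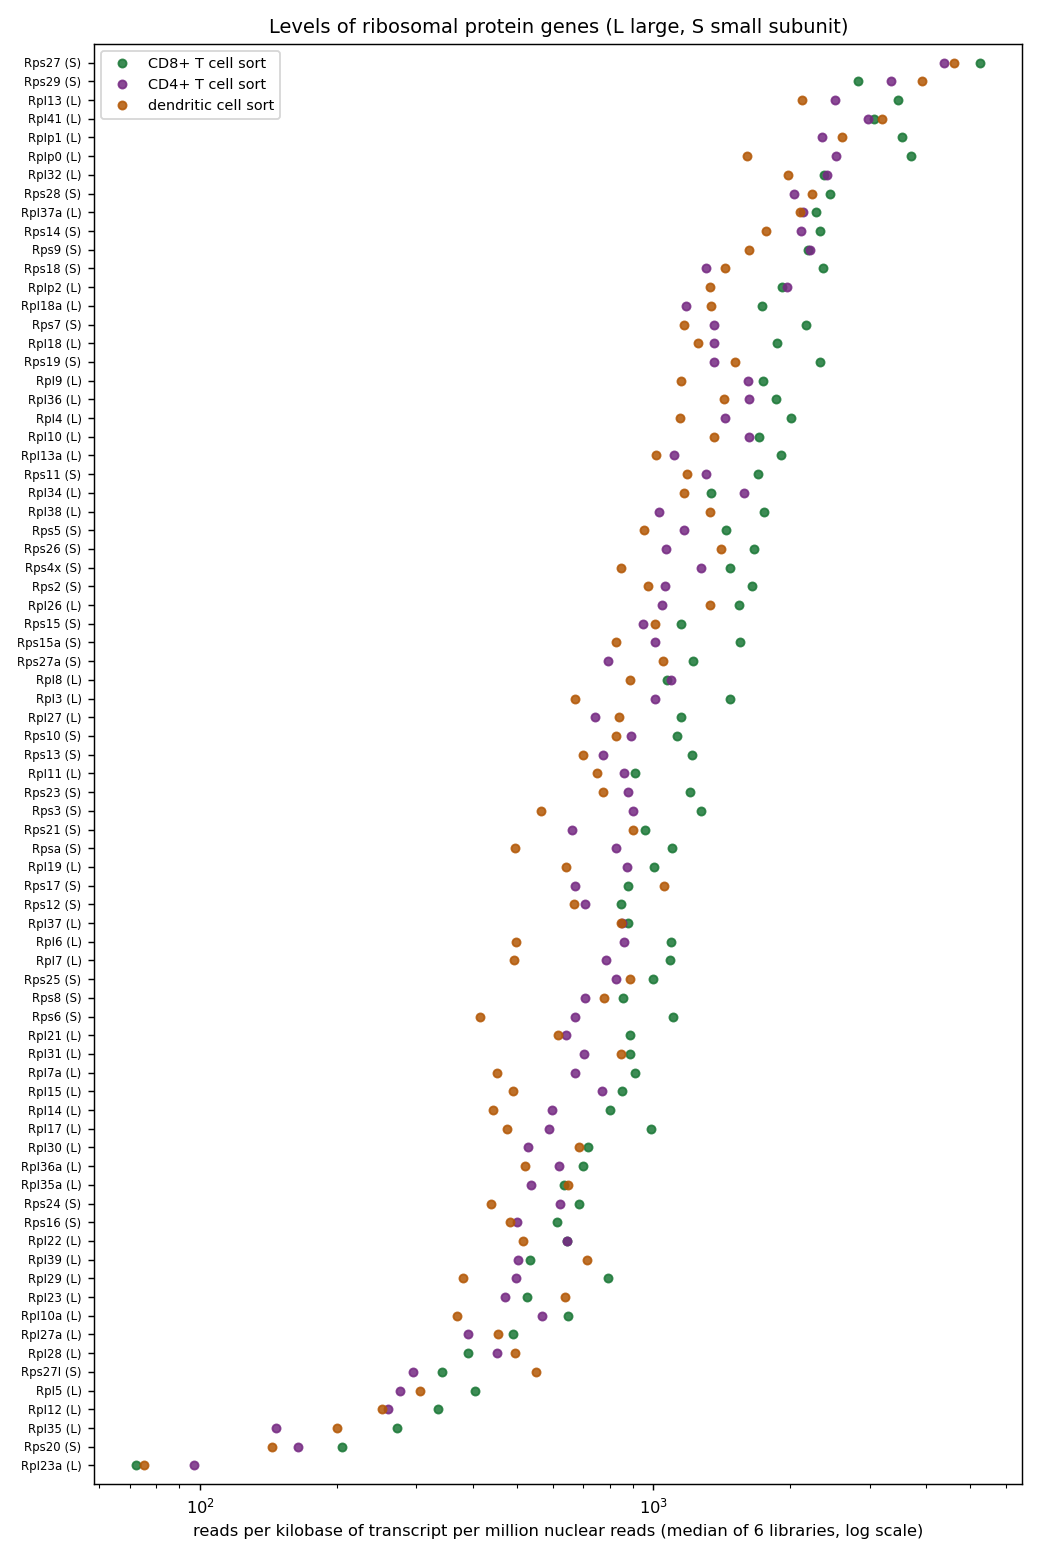
Level of each ribosomal protein gene with at least 20 reads in total, as the median over the 6 libraries of a sort of CPM per kilobase of transcript (log scale). L and S mark the subunit. Rps27 is highest and Rpl23a lowest in all 3 sorts.

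Of the stalk proteins, which recruit elongation factors to the large subunit, Rplp0 drew the most reads. In the CD8+ sort it had 5160, 4890 and 3081 CPM in D18 replicates 1, 2 and 3, against 6306, 7158 and 3624 in anti-PD-1 replicates 1, 2 and 3. Rplp1 had 3772, 651 and 2311 in the D18 libraries, against 3270, 407 and 1221 in the anti-PD-1 libraries. Rplp2 had 2384, 286 and 1061 in the D18 libraries, against 1261, 173 and 553 in the anti-PD-1 libraries. Each D18 library thus lay below its anti-PD-1 counterpart of the same number for Rplp0 and above it for Rplp1 and Rplp2, and replicate 2 of both groups was lowest for Rplp1 and Rplp2 but not for Rplp0. Rpsa, a small subunit protein also known as the laminin receptor precursor, had 3166, 1846 and 1660 in the D18 libraries of that sort, against 2170, 1615 and 1125 in the anti-PD-1 libraries.

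Rps27 has a close relative, Rps27l, which the symbol rule also takes in and which is known to be induced by p53. Their coding sequences, from the GENCODE M21 transcripts (mm10), are both 255 bases with the stop codon and differ at 61 bases, an identity of 76.1%. Rps27 lies at chr3:90212522-90213651 on the minus strand and Rps27l at chr9:66946086-66949516 on the plus strand. They are printed so that the differing bases, in capitals, can be compared.
Rps27: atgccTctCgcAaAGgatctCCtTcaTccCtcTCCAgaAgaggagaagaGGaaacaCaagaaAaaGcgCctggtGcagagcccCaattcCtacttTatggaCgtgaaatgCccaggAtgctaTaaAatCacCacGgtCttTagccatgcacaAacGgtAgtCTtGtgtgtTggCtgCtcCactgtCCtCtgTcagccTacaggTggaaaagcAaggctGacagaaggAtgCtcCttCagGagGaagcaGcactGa
Rps27l: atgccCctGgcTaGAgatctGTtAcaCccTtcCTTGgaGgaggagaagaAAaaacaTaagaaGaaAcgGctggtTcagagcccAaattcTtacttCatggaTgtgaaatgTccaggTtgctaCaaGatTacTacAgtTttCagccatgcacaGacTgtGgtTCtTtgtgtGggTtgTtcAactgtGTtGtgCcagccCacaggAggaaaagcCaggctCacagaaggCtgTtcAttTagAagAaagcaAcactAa
The longest stretch without a difference is 11 bases. Rps27l made up 7.60% (4.71 to 11.5), 18.5% (11.7 to 27.1) and 14.97% (9.62 to 21.8) of the reads of the pair in CD8+ D18 replicates 1, 2 and 3. In CD8+ anti-PD-1 replicates 1, 2 and 3 it made up 3.45% (1.59 to 6.44), 20.5% (9.30 to 36.5) and 12.4% (7.91 to 18.1). Replicate 1 was lowest in both groups and the groups overlapped. Over all libraries the share lay between 2.08%, in CD4+ D18 replicate 1, and 44.4%, in CD4+ D18 replicate 2, where it rests on 4 of 9 reads and its interval runs from 13.7 to 78.8%.

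The length of the coding sequence set libraries apart. The 75 members were divided into 26 short ones (under 400 nt), 28 of middle length and 21 long ones (600 nt or more); their coding lengths ran from 75 nt (Rpl41) to 1257 nt (Rpl4). Short members held 30.3% (29.3 to 31.4), 10.3% (9.84 to 10.8) and 28.4% (27.1 to 29.8) of the ribosomal protein reads in CD8+ D18 replicates 1, 2 and 3. They held 29.3% (28.3 to 30.2), 7.12% (6.56 to 7.72) and 27.3% (26.3 to 28.4) in CD8+ anti-PD-1 replicates 1, 2 and 3. Replicate 2 of both groups was low by a wide margin, and the treatments did not stand apart.

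The CD4+ T cell sort had the same division, with 27.6% (26.2 to 29.0), 8.17% (6.42 to 10.2) and 26.3% (25.4 to 27.2) in D18 replicates 1, 2 and 3, against 31.4% (30.1 to 32.8), 9.64% (8.50 to 10.9) and 32.4% (31.3 to 33.6) in anti-PD-1 replicates 1, 2 and 3. In the dendritic cell sort short members held 33.7% (32.7 to 34.8), 58.2% (53.6 to 62.8) and 25.8% (25.0 to 26.7) in D18 replicates 1, 2 and 3, against 29.4% (27.7 to 31.1), 7.97% (6.52 to 9.63) and 27.5% (26.6 to 28.5) in anti-PD-1 replicates 1, 2 and 3. Replicate 2 was low here in the anti-PD-1 group and high in the D18 group. In that D18 library Rps29, a short member, had more reads than any other member. The ratio of long to short member reads was 5.50 to 10.2 in the 5 libraries numbered 2 other than dendritic cell D18 replicate 2, 0.298 in that library and 0.867 to 1.42 in the other 12.

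**Figure D3:**
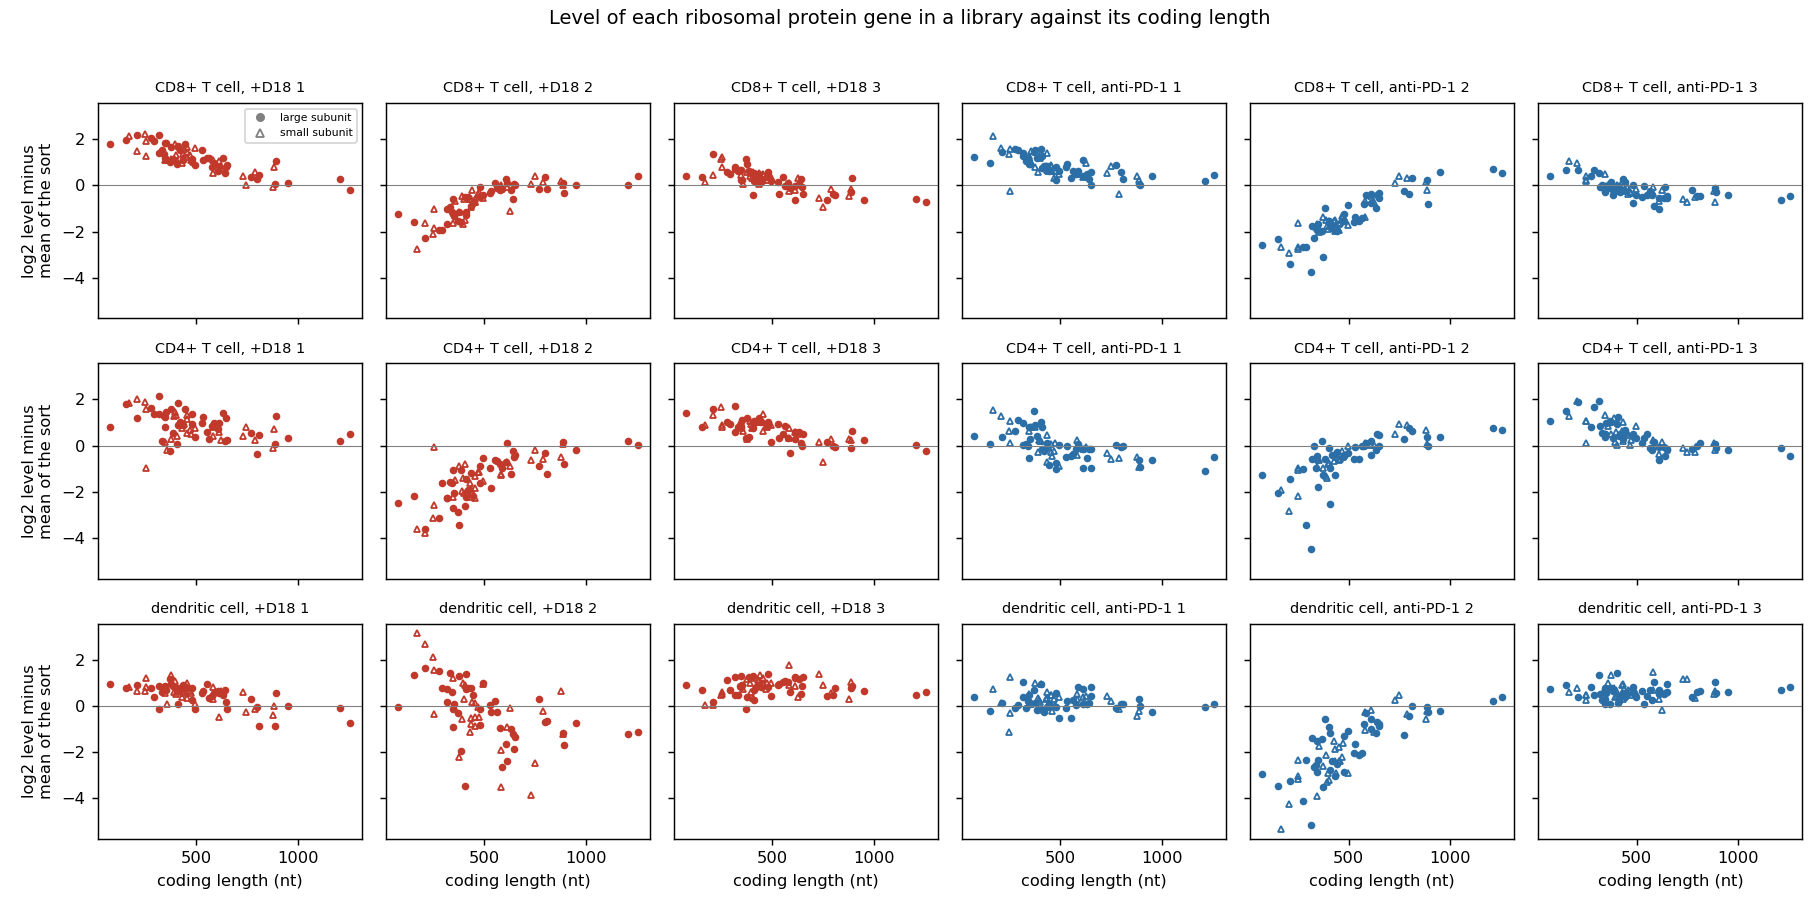
Level of each of the 75 members in a library, as log2 CPM (0.5 added to the reads) minus the gene's mean over the 6 libraries of the sort, against coding length. Filled circles are large and open triangles small subunit genes; red panels are anti-PD-1 plus D18 and blue panels anti-PD-1. The cloud climbs with length in 5 of the 6 panels numbered 2 and falls in the panel of dendritic cell D18 replicate 2.

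How closely levels followed length within a library differed between libraries. Relative to the mean of its sort, the log2 level climbed by 0.25 per 100 nt of coding sequence in CD8+ D18 replicate 2 and by 0.38 in CD8+ anti-PD-1 replicate 2, with Spearman's rho of 0.88 and 0.89 over the 75 members. In the CD4+ sort it climbed by 0.32 in D18 replicate 2 and 0.30 in anti-PD-1 replicate 2 (rho 0.78 and 0.85), and in dendritic cell anti-PD-1 replicate 2 by 0.45 (rho 0.81). In dendritic cell D18 replicate 2 the slope was -0.30 (rho -0.61). Among the libraries numbered 1 or 3, rho ran from -0.83 (CD4+ anti-PD-1 replicate 3) to 0.11 (dendritic cell D18 replicate 3). It was near 0 in dendritic cell anti-PD-1 replicates 1 and 3 as well (-0.13 and 0.067). These are descriptions across genes that share a library, and since levels are relative to the mean of 6 libraries, the slopes within a sort depend on each other.

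Short and long members show the span. Rpl41 has a coding sequence of 78 bases with its stop codon (GENCODE M21, chr10:128548114-128549305, minus strand), printed here whole as the shortest member, in lower case since no base is singled out.
Rpl41: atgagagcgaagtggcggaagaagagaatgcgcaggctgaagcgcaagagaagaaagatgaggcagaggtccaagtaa
Rps29 had 1701, 8473 and 1003 CPM in dendritic cell D18 replicates 1, 2 and 3, against 1585, 16.0 and 1467 in anti-PD-1 replicates 1, 2 and 3. Rpl41 had 1802, 837 and 1765 in the D18 libraries, against 1223, 112 and 1564 in the anti-PD-1 libraries. Rpl4, the longest member, had 893, 628 and 2256 in the D18 libraries, against 1567, 1950 and 2595 in the anti-PD-1 libraries. Anti-PD-1 replicate 2 was therefore lowest for both short genes and not for Rpl4, and the high Rps29 value of D18 replicate 2 rests on 9560 nuclear reads.

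Other genes were compared in the same libraries. Among all other nuclear protein-coding genes, transcripts annotated under 1000 nt held 10.7% to 17.2% of the reads in the 5 libraries with few reads of short members, and 16.9% to 26.1% in the other 13. Those 5 libraries ran from 2.85% to 71.9% mitochondrial reads and from 31156 to 266392 reads in all. The part of the mitochondrial share and of depth in the pattern was not tested.

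**Figure D4:**
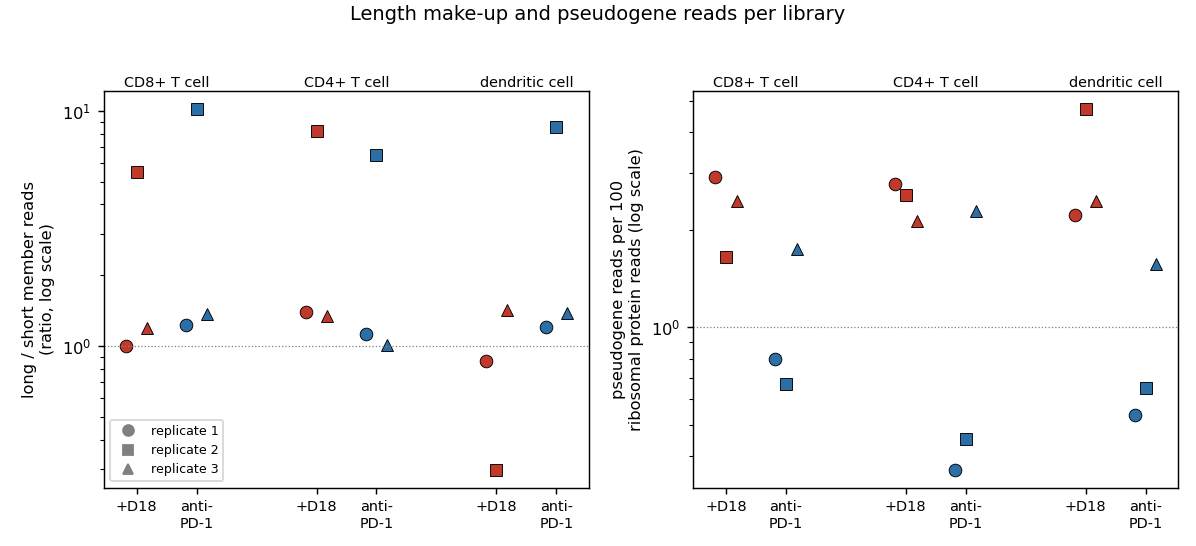
Left, reads of long (600 nt or more) over short (under 400 nt) members; right, reads of annotated ribosomal protein pseudogenes per 100 reads of ribosomal protein genes, both on log scales (red, anti-PD-1 plus D18; blue, anti-PD-1; shape, replicate number). On the left, 5 squares stand at 5.50 to 10.2 and dendritic cell D18 replicate 2 at 0.298; on the right, anti-PD-1 replicates 1 and 2 of every sort lie below 1 and all other libraries above it.

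The ratio of large to small subunit reads was also taken within classes of length. Of the long members, 14 are of the large and 7 of the small subunit, where the short members are 15 and 11. Among members of middle length (15 large and 13 small), the ratio of large to small subunit reads was 1.02, 1.03 and 0.917 in CD8+ D18 replicates 1, 2 and 3, against 1.09, 1.06 and 0.928 in CD8+ anti-PD-1 replicates 1, 2 and 3. In the CD4+ sort it was 1.19, 1.32 and 1.00 with D18, against 1.09, 1.05 and 1.03 with anti-PD-1, and in the dendritic cell sort 1.07, 1.57 and 0.957 with D18, against 0.914, 1.03 and 0.954 with anti-PD-1. Replicate 2 stood within the other libraries of its group or close to them in the CD8+ sort, and the treatments overlapped in all sorts. Among long members the CD8+ ratio was 2.25, 2.31 and 2.25 with D18, against 2.41, 2.45 and 2.44 with anti-PD-1, groups that did not overlap; this was chosen after its values were seen, from 9 comparisons of length classes and sorts, and no test is given.

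Reads of pseudogenes divided the libraries in another way. The tables hold 273 annotated pseudogenes with a ribosomal protein symbol, most of them processed copies that resemble their parent mRNA. Their reads per 100 ribosomal protein reads were 2.91, 1.64 and 2.45 in CD8+ D18 replicates 1, 2 and 3, against 0.799, 0.668 and 1.74 in anti-PD-1 replicates 1, 2 and 3. In the CD4+ sort they were 2.76, 2.57 and 2.13 with D18, against 0.364, 0.453 and 2.29 with anti-PD-1, and in the dendritic cell sort 2.21, 4.71 and 2.45 with D18, against 0.537, 0.651 and 1.57 with anti-PD-1. Only the dendritic cell groups did not overlap. The low values were those of the 6 libraries without mt-Co2 reads, which had 171 reads on 53 pseudogenes for 27420 ribosomal protein reads; the other 12 had 1761 reads on 156 pseudogenes for 81750. Anti-PD-1 replicate 3 of every sort, which had mt-Co2 reads, had over 1.5 per 100. In the CD8+ and CD4+ sorts it lay within the range of the D18 libraries (1.74 and 2.29). In the dendritic cell sort it lay below all D18 libraries (1.57 beside 2.21, 4.71 and 2.45). The parts of the set and of the treatment were not tested.

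No ribosomal protein gene passed the test for a change with D18 in any sort. The test was limma on log2(normalised reads + 1), for genes averaging 10 or more normalised reads, with the adjusted p (Benjamini-Hochberg over all genes tested) held against 0.05. Normalised reads are reads divided by the size factor of the library. In the CD8+ T cell sort 75 members were among 1569 genes tested, and 0 members and 0 genes (0%) passed. At an unadjusted p under 0.05 there were 0 members and 130 genes (8.29%), and limma-voom also called 0. No member had D18 and anti-PD-1 values that did not overlap, where 6.88% of all genes tested were higher and 7.65% lower without overlap.

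The log2 change was above 0 for 62 members and below 0 for 13, with a median of 0.45 beside -0.03 over all genes tested. It was 0.45 over 44 large and 0.42 over 31 small subunit members. The median was -0.14 without anti-PD-1 replicate 2, -0.01 without D18 replicate 1 and 1.04 without D18 replicate 2. Against anti-PD-1 replicate 3 alone (the term for the sets) it was 0.28.

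In this sort same-numbered libraries deviated together, so the number was also fitted as a block. With the block 20 of 1569 genes passed (1.27%), among them 0 members. At an unadjusted p under 0.05, 26 of 75 members (34.7%) were higher and 0 lower, beside 8.86% of all genes tested that were higher; the smallest adjusted p of a member was 0.113 (Rpl17, limma with the block). Normalised reads were higher with D18 in every pair of equal number for 46 members (61.3%), beside 21.6% of all genes tested, and lower in every pair for 6 (8%), beside 23.9%. In the same 3 pairs the monocyte and macrophage list was lower and the T cell list higher with D18, as given above, and their part in these counts was not tested. Pairs 1 and 2 also cross the sets of libraries, since only the D18 library of each had mt-Co2 reads. Pair 3 alone lies within a set. Members share the depth and length profile of their libraries and are not independent of each other.

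Of single members, Rpl17, a protein at the exit of the peptide tunnel, had 144, 60.9 and 84.2 normalised reads in CD8+ D18 replicates 1, 2 and 3, against 75.5, 19.98 and 49.97 in anti-PD-1 replicates 1, 2 and 3. Each D18 library was above its pair, but the groups overlapped, and the log2 change was 1.07 ± 0.59 (SE, limma, adjusted p = 0.671). Rpl5, which binds the 5S rRNA, had 183, 63.3 and 113 in the D18 libraries, against 83.6, 47.2 and 75.0 in the anti-PD-1 libraries, a log2 change of 0.71 ± 0.51 (limma, adjusted p = 0.694). Rpl29 had a log2 change of 0.84 ± 0.57 (limma, adjusted p = 0.680).

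The members with the smallest p below 0 were long ones. Rplp0 had 493, 422 and 303 normalised reads in CD8+ D18 replicates 1, 2 and 3, against 580, 644 and 365 in anti-PD-1 replicates 1, 2 and 3. The D18 libraries were lower in each pair, with overlapping groups and a log2 change of -0.37 ± 0.43 (limma, adjusted p = 0.785). Rpl4 had a log2 change of -0.35 ± 0.45 (limma, adjusted p = 0.800), and Rps6, the protein phosphorylated by S6 kinase downstream of mTOR, -0.37 ± 0.53 (limma, adjusted p = 0.823). Against anti-PD-1 replicate 3 alone these values were 0.12, 0.17 and 0.43, of opposite sign but resting on 1 anti-PD-1 library; under quantile normalisation the value of Rplp0 was 0.024.

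In the CD4+ T cell sort 74 members were among 966 genes tested, and 0 members and 0 genes (0%) passed in limma. At an unadjusted p under 0.05 there were 0 members and 100 genes (10.4%), and limma-voom called 0. Rpsa was the only member whose groups did not overlap, higher with D18, where 5.28% of all genes tested were higher and 9.21% lower without overlap. The log2 change was above 0 for 44 members and below 0 for 30, with a median of 0.07 beside 0.03 over all genes tested, 0.26 over 43 large and 0.01 over 31 small subunit members. The median was 0.91 without D18 replicate 2 and -0.28 without D18 replicate 1, and -0.35 without the anti-PD-1 libraries that lacked T cell markers, which is again a comparison with anti-PD-1 replicate 3 alone. Without D18 replicate 3, which held 83 reads of Cd8a, it was -0.20. Anti-PD-1 replicate 3 also held Cd8a reads (15).

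Rpsa had 131, 75.0 and 94.6 normalised reads in CD4+ D18 replicates 1, 2 and 3, against 41.9, 71.7 and 68.2 in anti-PD-1 replicates 1, 2 and 3. The gap between the lowest D18 and the highest anti-PD-1 library was small, and the log2 change was 0.72 ± 0.49 (limma, adjusted p = 0.609). Rpl15 had 67.8, 33.8 and 42.1 in the D18 libraries, against 18.2, 34.7 and 22.1 in the anti-PD-1 libraries, a log2 change of 0.90 ± 0.53 (limma, adjusted p = 0.532), and Rpl5 had 0.73 ± 0.64 (limma, adjusted p = 0.694). In the other direction Rpl32 had 59.3, 7.50 and 95.2 in the D18 libraries, against 117, 45.1 and 105 in the anti-PD-1 libraries. Its lowest value in each group was replicate 2, and its log2 change was -1.18 ± 0.90 (limma, adjusted p = 0.637). Rps20 had -0.67 ± 0.71 and Rpl7a -0.44 ± 0.49 (limma, adjusted p = 0.764 and 0.788).

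In the dendritic cell sort 75 members were among 886 genes tested, and 0 members and 0 genes (0%) passed in limma. At an unadjusted p under 0.05 there were 1 member, Rps21, and 61 genes (6.88%), and limma-voom called 0. The groups did not overlap for 5 members, all higher with D18 (Rps21, Rpl27, Rps27, Rpl35a and Rpl37a, 6.67% of those tested), where 4.18% of all genes tested were higher and 19.9% lower without overlap. The log2 change was above 0 for 54 members and below 0 for 21. Its median was 0.57 beside -0.65 over all genes tested, 0.56 over 44 large and 0.57 over 31 small subunit members. Under quantile normalisation 63 members were above 0 and 12 below, with a median of 0.83 beside -0.071 over all genes tested; 14 members were then at an unadjusted p under 0.05, beside 146 genes (16.5%), and 0 members passed. The median was -0.15 without anti-PD-1 replicate 2, 1.15 without D18 replicate 2 and -0.28 against anti-PD-1 replicate 3 alone. Without both libraries numbered 3, which held T cell reads, it was 0.59.

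The 5 members that did not overlap are short or of just over 400 nt. Rps21, a short protein of the small subunit, had 30.4, 53.0 and 24.9 normalised reads in dendritic cell D18 replicates 1, 2 and 3, against 7.41, 3.17 and 20.8 in anti-PD-1 replicates 1, 2 and 3. All D18 libraries were higher, D18 replicate 3 by little, and the log2 change was 1.95 ± 0.77 (limma, adjusted p = 0.551). Rpl27 had 45.6, 43.3 and 40.2 in the D18 libraries, against 20.1, 3.17 and 26.0 in the anti-PD-1 libraries, a log2 change of 1.72 ± 0.81 (limma, adjusted p = 0.551). Rps27 had 133, 144 and 108 in the D18 libraries, against 54.0, 7.39 and 95.6 in the anti-PD-1 libraries, a log2 change of 1.86 ± 0.95 (limma, adjusted p = 0.551). In each of these genes anti-PD-1 replicate 2, the library with few reads of short members, was the lowest of the 6. Against anti-PD-1 replicate 3 alone the changes were 0.69, 0.70 and 0.41.

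Long members stood on the other side. Rpl4 had 62.4, 28.9 and 147 normalised reads in dendritic cell D18 replicates 1, 2 and 3, against 96.4, 129 and 163 in anti-PD-1 replicates 1, 2 and 3, a log2 change of -0.96 ± 0.77 (limma, adjusted p = 0.604). Rps6 had 16.8, 0 and 35.9 in the D18 libraries, against 20.1, 26.4 and 41.2 in the anti-PD-1 libraries, a log2 change of -1.74 ± 1.24 (limma, adjusted p = 0.564). Rpl6 had 22.2, 9.63 and 65.0 in the D18 libraries, against 43.4, 36.9 and 74.3 in the anti-PD-1 libraries, with -0.99 ± 0.82 (limma, adjusted p = 0.604). D18 replicate 2 was lowest for each, and a count of 0 there allows up to 3 reads, or 314 CPM.

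**Figure D5:**
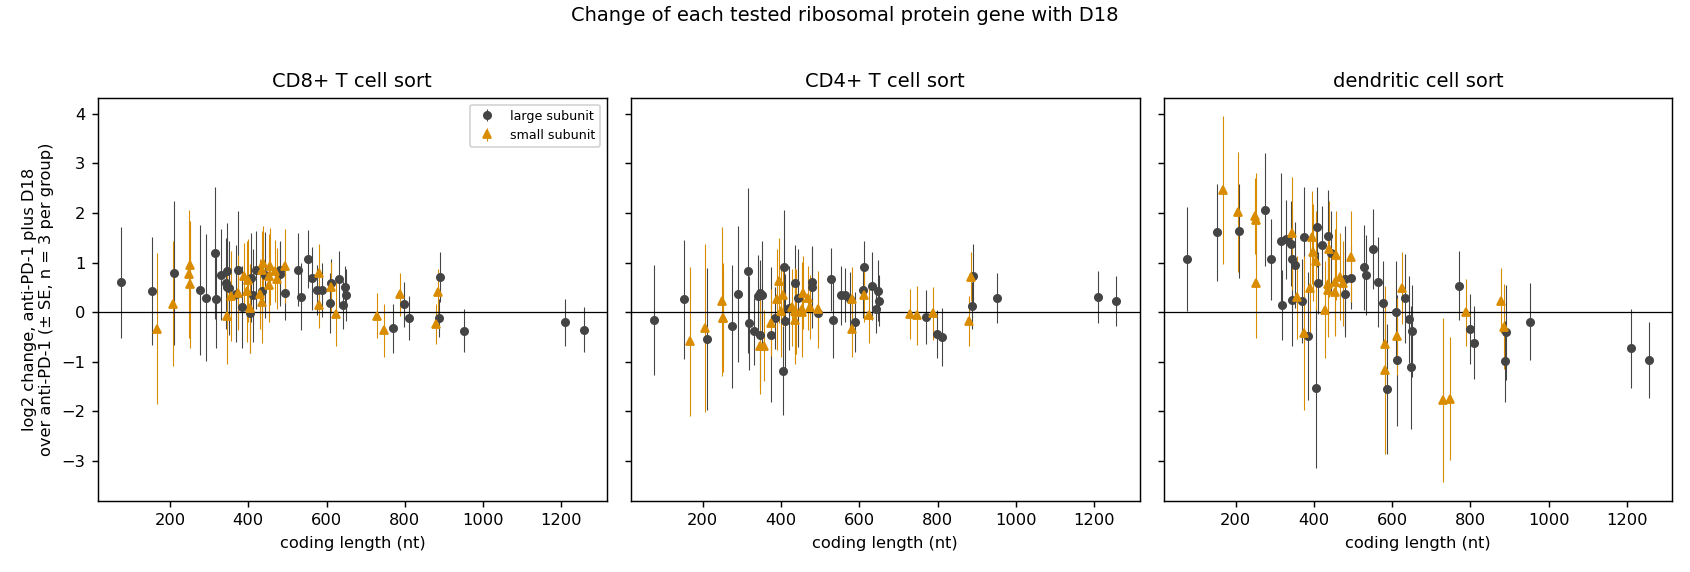
log2 change of each tested member, anti-PD-1 plus D18 over anti-PD-1, against coding length, with SE from limma (n = 3 libraries per group). Black circles are large and orange triangles small subunit genes. In dendritic cells the points fall with length (rho = -0.69 over 75 members), while no member passed the test in any sort.

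The fitted changes with D18 were ordered by length in the dendritic cell sort. The median log2 change was 1.30 over 26 short members (24 above 0), 0.64 over 28 of middle length (24 above 0) and -0.38 over 21 long members (6 above 0 and 15 below). Spearman's rho between change and coding length was -0.69 there, -0.31 in the CD8+ and 0.26 in the CD4+ sort, each over the members tested and with no p, since members share their libraries. In the CD8+ sort the medians were 0.50, 0.69 and 0.14 for short, middle and long members, and in the CD4+ sort -0.11, 0.10 and 0.22. Against anti-PD-1 replicate 3 alone they were -0.08, -0.22 and -0.86 in the dendritic cell sort, 0.13, 0.42 and 0.44 in the CD8+ sort and -0.98, -0.36 and 0.27 in the CD4+ sort. These medians all rest on that single anti-PD-1 library in each sort. Within the dendritic cell sort, short members held the lowest share of ribosomal protein reads in anti-PD-1 replicate 2 (7.97%). They held the highest in D18 replicate 2 (58.2%). The part of these libraries in the change was not tested apart from the values without each.

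The size of the D18 change was also compared between sorts, as a limma contrast over all 18 libraries. Between CD8+ and CD4+ T cells 0 of 916 genes passed (0%) and 0 of 74 members; at an unadjusted p under 0.05 there were 7 genes (0.764%) and 0 members. Between CD8+ T cells and dendritic cells 0 of 816 genes and 0 of 75 members passed, with 7 genes (0.858%) and 0 members at an unadjusted p under 0.05. Between CD4+ T cells and dendritic cells 0 of 744 genes and 0 of 74 members passed, with 21 genes (2.82%) and 0 members at an unadjusted p under 0.05. The median difference over members was 0.37, 0.07 and -0.51 in these contrasts, beside -0.12, 0.39 and 0.48 over all genes. limma-voom was not run on these differences.

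Genes that work with the ribosome were counted in the same tests. A list of 7 ribosomal proteins outside the symbol rule was taken, which does not hold all that the rule leaves out. Of these, 6, 3 and 3 were tested in the CD8+, CD4+ and dendritic cell sorts and 0 passed. Fau, whose product is processed to the small subunit protein eS30, had log2 changes of 0.61 ± 0.79 (CD8+), -0.35 ± 0.83 (CD4+) and 0.56 ± 0.85 (dendritic cells) (limma, adjusted p = 0.800, 0.906 and 0.764). Of 11 elongation and termination factors, 6, 5 and 5 were tested and 0 passed. Eef2, which moves the ribosome along the mRNA, had 64, 24 and 126 reads in CD4+ D18 replicates 1, 2 and 3, against 44, 12 and 55 in anti-PD-1 replicates 1, 2 and 3, and a log2 change of 1.39 ± 0.56 (limma, adjusted p = 0.453).

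Of 31 initiation factors, 25, 15 and 15 were tested in the CD8+, CD4+ and dendritic cell sorts, with median changes of 0.09, -0.02 and -0.59, and 0 passed. Eif3k, a subunit of the factor that holds the small subunit ready for initiation, had a change of 0.99 ± 0.41 in the CD8+ sort (limma, adjusted p = 0.599). Of 10 further transcripts listed for a TOP sequence or for translation with ribosomal protein mRNAs, 9, 8 and 7 were tested. Their medians were 0.08, 0.06 and -0.06, and 0 passed. Pabpc1 is in this list and among the initiation factors, so the lists are not separate. Of 30 genes of ribosome biogenesis, 6, 2 and 2 reached the minimum, with medians of 0.56, 0.21 and -0.42, and 0 passed. In the CD8+ sort 4 of the 6 were above 0. Nop56, a nucleolar protein of box C/D particles, went the other way with -1.22 ± 0.50 (limma, adjusted p = 0.599). Of 12 genes of growth control around mTOR, 3, 1 and 1 were tested and 0 passed. Of 78 mitochondrial ribosomal proteins only 10, 0 and 1 reached the minimum, where 75 of the 80 cytosolic ones did in the CD8+ sort, and 0 passed. These lists were counted beside backgrounds of 0% passing in every sort.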

How the data were processed

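Per the labels, total RNA of sorted and lysed cells went into Smart-Seq2 libraries, a protocol with neither strand nor molecular identifiers. Per the submitters' processing notes, the tools were STAR 2.4.0, HTSeq 0.6.1 and DESeq2, with mm10, the last tool with no version. The deposited tables, 1 per sort, hold log2 values that the authors made by variance stabilisation of size-factor scaled reads, as the values show. Undoing it gave whole reads for 100% of values (tolerance 0.001), and the tables were normalised separately, so levels across sorts are described without a test. Symbols, coding lengths and positions came from GENCODE M21 (46488 IDs matched, 98.9%).

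Changes were tested per sort with limma 3.58.1 in R 4.3.3 (trend, robust, pseudocount 1, mean of at least 10 normalised reads), which is also the source of every adjusted p. Shares and ratios have no test. Figures were made with Python 3.11.15 and matplotlib 3.10.9. The members, lists, tests and alternatives were chosen with earlier results of these data known. Where no member passed, the 3 members per direction and sort with the smallest p are named; levels are given for the 3 most abundant members per subunit, stalk proteins, Rpsa and paralogs. Other named members were chosen after their values were seen. Same-numbered libraries of the CD8+ sort deviated together (r = 0.363, 0.507 and 0.556 over 1569 genes), so their replicate numbers were also used as pairs; the labels do not say what the numbers share. The limma analysis was tested on simulated data.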

Additional observations from a re-analysis of the deposited data

How the results depend on the processing

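In every alternative tried, 0 ribosomal protein genes passed in any sort, and 0 genes passed for differences between sorts. Over all genes, where 0 passed in the reported analysis, the CD8+ sort gave 22 genes with no filter, 1 with the deposited log2 values, 20 with the replicate block, 2 with 1 fit of all 18 libraries and 0 to 3 when each library was left out. The CD4+ sort gave 29 with no filter, 35 without both libraries numbered 3 and 0 to 20 when each library was left out (20 without anti-PD-1 replicate 3). The dendritic cell sort gave 1 with quantile normalisation, 1 without both libraries numbered 3 and 17 without the libraries over 50% mitochondrial or under 20000 reads. Log2 changes turned in the CD8+ sort for Rplp0 with quantile normalisation (0.024), and for Rplp0 (0.12), Rpl4 (0.17) and Rps6 (0.43) with the term for the sets, which leaves anti-PD-1 replicate 3 as the sole comparison. The dendritic cell difference in share was -0.507 points within the libraries with mt-Co2 reads (1.70 over all), and its log2 ratio of large to small subunits differed by 0.28 in members of middle length (-0.32 over all). The cause was not tested. The block changed no other call; over all genes, equal numbers did not pair libraries in the CD4+ sort (r = -0.136, 0.153 and -0.205) or dendritic cells (0.0339, -0.0935 and 0.141). Over ribosomal protein genes alone r was 0.381, 0.765 and 0.65 in the CD4+ sort and -0.0967, -0.432 and -0.473 in dendritic cells. The shallowest library, with 11170 reads, limits what dendritic cells can show. The alternatives by length class and those of the differences between sorts were chosen after seeing the data.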
